A study of Ovis aries with 16 samples.

Results

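CATSPERB encodes an auxiliary transmembrane subunit of CatSper, the calcium channel of the sperm tail. It is 1 gene of 25197 listed in the testis RNA-seq of 16 male sheep, and its identifier, ENSOARG00000012186, was found through the symbol column of the study's tables. It was chosen by its difference between the diets. In limma it held rank 2 by p among the 5513 tested genes that were lower in underfed sheep. In the same order the gene at rank 5, ENSOARG00000011871, had a log2 difference of -1.10, and the gene at rank 6, ENSOARG00000005659, had -1.24. The contrast between the diets therefore chose CATSPERB, so its own difference is given as a description with no test.

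The sheep were sexually mature Merino males kept in individual pens. The high diet (8 well-fed sheep) was set for a 10% gain of live weight in 65 days, and the low diet (8 underfed sheep) for a loss of equal size. A maintenance diet group of the same study is not analysed here, so neither diet is an unchanged baseline. Each library came from 1 sheep, from pieces of the top, middle and bottom of the right testis that were mixed before RNA isolation, so the values are averages over all cell types of the organ. No fit left out a sheep unless stated.

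CatSper is built of a pore of related CATSPER proteins with several auxiliary subunits around it, CATSPERB among them. It admits calcium into the sperm tail when the cell becomes alkaline, and in several mammals sperm without it cannot hyperactivate, the strong tail beating needed to reach and penetrate the egg. Its genes are transcribed in developing germ cells of the testis, mostly after meiosis has begun, and the finished channel sits in lines along the principal piece of the tail.

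CATSPERB was lower in the testes of underfed sheep. The unit is CPM, the reads on a gene for every 1000000 reads on all genes of a library. In well-fed sheep CATSPERB had 91.5 CPM in replicate 1, 50.4 in replicate 2, 87.8 in replicate 3, 77.1 in replicate 4, 150.9 in replicate 5, 112.5 in replicate 6, 53.7 in replicate 7 and 163.7 in replicate 8. In underfed sheep it had 60.1 CPM in replicate 1, 38.2 in replicate 2, 20.8 in replicate 3, 19.1 in replicate 4, 36.9 in replicate 5, 18.2 in replicate 6, 12.9 in replicate 7 and 26.7 in replicate 8. The groups met at 1 sheep: low diet replicate 1 lay above high diet replicates 2 and 7, and 7 of 8 underfed sheep lay below every well-fed sheep. The mean was 98.5 ± 41.7 CPM in well-fed and 29.1 ± 15.4 CPM in underfed sheep (SD, n = 8 each), a ratio of 3.38. The log2 difference, low diet minus high diet, was -1.93 with an SE of 0.33 on the scale log2(CPM divided by TMM factor + 1). TMM factors rescale each library for differences in composition, from the bulk of genes after the most extreme are trimmed. In bulk tissue, fewer cells of a type and less RNA per cell cannot be told apart.

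**Figure D1:**
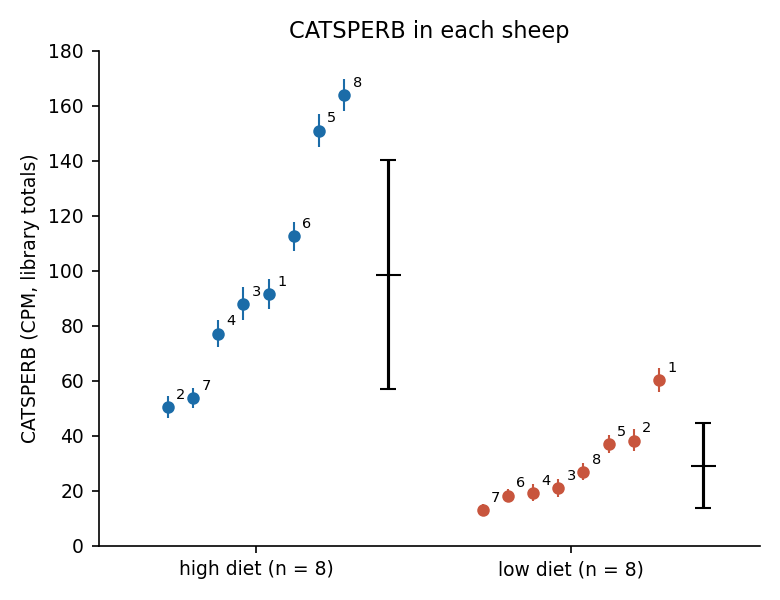
CATSPERB in CPM (y axis, from 0) for each sheep of both diets (x axis), with the replicate number beside each point, its 95% Wilson interval as a thin line and the mean ± SD of the diet in black. Low diet replicate 1, at 60.1 CPM, is the underfed sheep that reaches into the range of the high diet, and high diet replicate 8 is the highest at 163.7 CPM.

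The gene was well counted in every library. Reads on CATSPERB ranged from 615 to 2985 in well-fed and from 138 to 685 in underfed sheep, so the relative counting error was between 1.83% and 8.51%. Within a diet the highest sheep stood 3.25-fold above the lowest on the high and 4.68-fold above it on the low diet, on CPM. On the log2 scale the SD between sheep of the same diet was 0.73, against a median of 0.47 over 2136 genes of like level, which placed CATSPERB at percentile 86.3 of spread. Among genes with at least 1 read in a library, its level stood at percentile 85.4 ± 5.47 in well-fed and 64.6 ± 8.90 in underfed sheep (SD, n = 8 each). These percentiles are ranks of CPM, which also depend on gene length.

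Library totals ranged from 9552149 to 18230076 reads on the high and from 7646547 to 14690953 on the low diet. High diet replicates 5 and 8 had the lowest TMM factors, 0.859 and 0.739, and low diet replicates 6 and 7 gave the largest shares of reads to their most abundant gene, 3.94% and 4.85%. Without both of these high diet libraries the log2 difference of CATSPERB was -1.59, and without both of these low diet libraries it was -1.69. It kept its direction when each sheep was left out, between -2.12 without low diet replicate 1 and -1.76 without high diet replicate 8.

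Of the 13 other genes listed for the CatSper complex, 4 had an identifier, and all 4 fell in underfed sheep. A gene is said to fall or rise where limma, with Benjamini-Hochberg adjustment over 11148 genes, gave an adjusted P value under 0.1 and mean CPM differed by a ratio above 1.5. The background is large: 5.42% of all tested genes fell and 10.8% rose, 604 and 1204 genes (66.6% of calls higher). On library totals without TMM factors 4.08% fell and 14% rose (77.5% of calls higher), and when mean TMM-scaled CPM gave the ratio 8.5% fell and 9.75% rose (53.4% of calls higher). Symbols came from the study's own tables, most of them of genes it had found to differ, and 26.9% of the 1761 genes with a symbol fell while 49.7% rose. The 4 of 4 is therefore not independent evidence of a direction. The pore subunits CATSPER1 to CATSPER4 and the auxiliary CATSPERG and CATSPERD had no identifier and are not analysed here. In none of the 4 were all underfed sheep below all well-fed sheep in CPM, a separation seen in 0.0359% of tested genes. The median log2 difference of the 4 partners was -1.10, and the median of all genes tested was 0.01.

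CATSPERE, listed under its older symbol C1orf101, is an auxiliary transmembrane subunit like CATSPERB. It ranged from 177.2 to 359.0 CPM in well-fed sheep, with a median of 252.7, and from 32.2 to 249.3 CPM in underfed sheep (median 124.5). As for CATSPERB, 7 of 8 underfed sheep lay below every well-fed sheep, and low diet replicate 1 was the exception. Its log2 difference was -1.54 with an SE of 0.35, and the call held in 16 of 16 fits with a sheep left out.

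SLCO6A1 is an organic anion transporter of the testis, related to the transporter found with the channel in mouse sperm. It ranged from 158.0 to 450.8 CPM on the high diet (median 264.2) and from 68.3 to 325.3 CPM on the low diet (median 145.3). Low diet replicate 1 stood far above the other underfed sheep, and 6 of 8 underfed sheep lay below every well-fed sheep. Its log2 difference was -1.22 with an SE of 0.31, and the call held in 16 of 16 such fits.

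EFCAB9 is the EF-hand calcium sensor of the complex. It ranged from 26.3 to 116.9 CPM in well-fed sheep, with a median of 39.6, and from 9.39 to 45.9 CPM in underfed sheep (median 31.0), and the ranges overlapped widely. The log2 difference was -0.92 with an SE of 0.36, and the call held in 7 of 16 fits with a sheep left out. C2CD6, listed as ALS2CR11, is a C2 domain protein needed to bring the channel into the tail. It ranged from 472.0 to 1846 CPM in well-fed sheep, with a median of 1052, and from 222.9 to 965.4 CPM in underfed sheep (median 645.4), with 2 of 8 underfed sheep below every well-fed sheep. Its log2 difference was -0.98 with an SE of 0.34, and the call held in 9 of 16 fits. Without high diet replicates 5 and 8 together, or without low diet replicates 6 and 7 together, 1 of the 4 partners, CATSPERE, still passed (-1.30 and -1.10), while calls over all genes went from 1808 to 261 and 377, and the other 3 had log2 differences from -1.02 to -0.55 and from -0.93 to -0.65. Without TMM factors EFCAB9 (-0.75) and C2CD6 (-0.80) did not pass. With testis weight as a covariate none of the 4 did, with differences from -1.39 for CATSPERE to -0.65 for EFCAB9, in a fit of limma that called 0 of 11148 genes (544 at an unadjusted p under 0.05). The paper describes testes that grew on the high and shrank on the low diet, so weight and diet overlap and this fit cannot separate them.

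**Figure D2:**
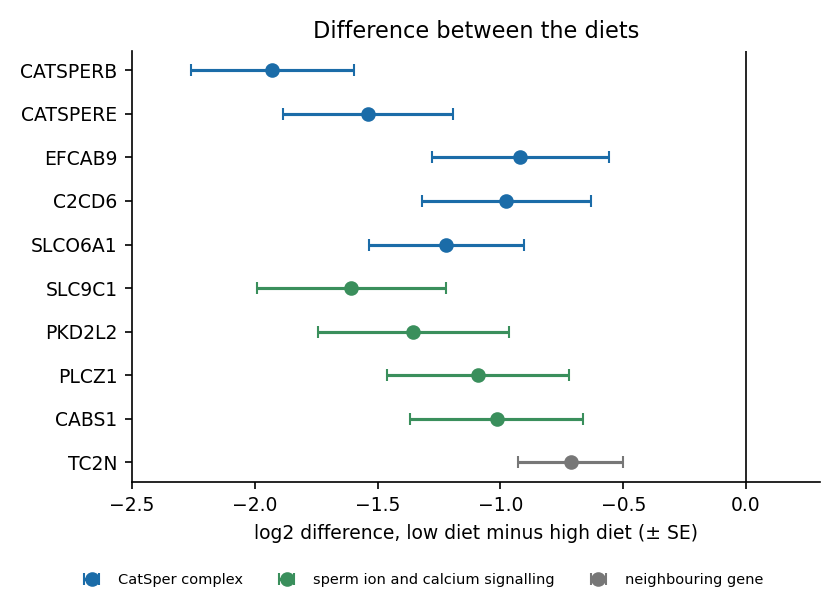
Log2 difference between the diets (x axis, low diet minus high diet, bars ± SE) for CATSPERB, its 4 partners with an identifier, 4 genes of sperm ion and calcium signalling, and the neighbouring gene TC2N (y axis). All 10 points lie left of 0, with CATSPERB at -1.93, SLC9C1 at -1.61 and CATSPERE at -1.54 the lowest.

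Within single sheep, the mean balance between CATSPERB and its partners was also lower in underfed sheep, which is again the contrast that chose the gene and is described with no test. The log2 value of CATSPERB minus that of CATSPERE averaged -1.49 ± 0.27 in well-fed and -1.87 ± 0.56 in underfed sheep (SD, n = 8 each), a difference of -0.39. The diets overlapped, with 4 of 8 underfed sheep below every well-fed sheep. Against SLCO6A1 the difference was -0.71, against C2CD6 -0.95 and against EFCAB9 -1.01. The underfed sheep below every well-fed sheep were 7 of 8 against EFCAB9, 5 of 8 against C2CD6 and 1 of 8 against SLCO6A1.

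CATSPERB and CATSPERE went together from sheep to sheep. The rank by p used the diet means and the size of the spread within a diet, not the order of the sheep. After the mean of each diet was removed, Pearson's r over 16 sheep was 0.82. It was 0.97 within the high diet and 0.80 within the low diet (n = 8 each). For SLCO6A1, C2CD6 and EFCAB9 the r was 0.78, 0.74 and 0.70. Values of the same libraries share their composition and scaling, and many genes went with CATSPERB to this degree: CATSPERE was at rank 380 of 11147 genes and 551 genes exceeded 0.8.

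**Figure D3:**
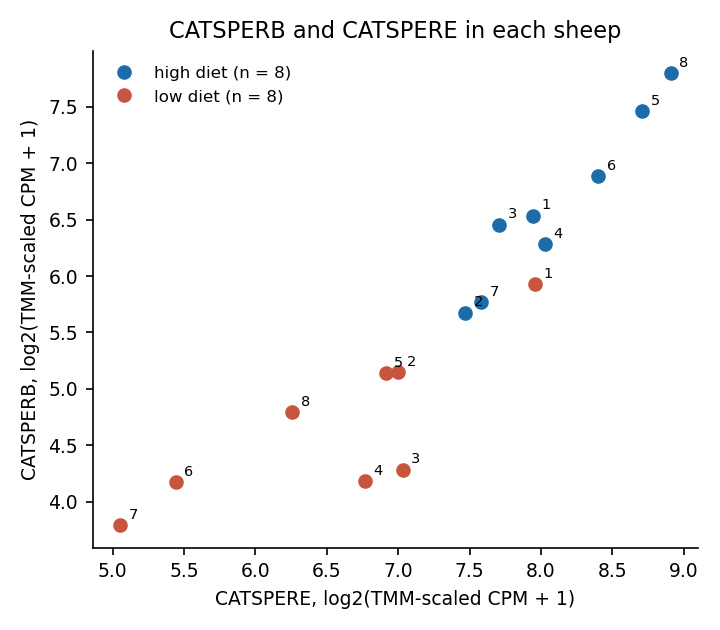
CATSPERB (y axis) against CATSPERE (x axis), both as log2(CPM divided by TMM factor + 1), 1 point per sheep with its replicate number and coloured by diet. Low diet replicate 1 lies beside the well-fed sheep for both genes, and low diet replicates 6 and 7 are lowest for both.

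Of 16 genes listed for other ion and calcium signalling of sperm, 4 had an identifier, and all 4 fell, against 5.42% of all tested genes and 26.9% of genes with a symbol. As for the CatSper list, the symbols came mostly from genes the study had found to differ, so this count is not independent evidence of a direction. SLC9C1 is the sodium/proton exchanger of the sperm tail, whose activity alkalises the cell. It ranged from 254.8 to 1035 CPM in well-fed sheep, with a median of 476.2, and from 65.8 to 384.6 CPM in underfed sheep (median 229.6), with 4 of 8 underfed sheep below every well-fed sheep. The log2 difference was -1.61 with an SE of 0.38. Its r with CATSPERB, diet means removed, was 0.83, and the log2 value of CATSPERB minus that of SLC9C1 differed by -0.32 between the diets, the smallest of the 8 genes set beside it.

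PKD2L2, a germ cell channel of the TRP family, ranged from 49.8 to 119.0 CPM on the high diet (median 73.9) and from 8.51 to 86.5 CPM on the low diet (median 39.9). Low diet replicates 6 and 7 were far below the other sheep, and the log2 difference was -1.35 with an SE of 0.39. PLCZ1, the sperm phospholipase that starts calcium waves in the egg, had 360.7 ± 152.9 CPM in well-fed and 199.8 ± 102.3 CPM in underfed sheep. CABS1, a calcium-binding protein of spermatids, had 1022 ± 556.0 and 544.4 ± 200.2 CPM (SD, n = 8 each). Their log2 differences were -1.09 and -1.02. The calls of SLC9C1 and PKD2L2 held in 16 of 16 fits with a sheep left out, and those of PLCZ1 and CABS1 in 9 of 16. None of the 4 passed without high diet replicates 5 and 8 together, where their log2 differences were from -1.25 (SLC9C1) to -0.63 (CABS1). Without low diet replicates 6 and 7 together SLC9C1 alone passed (-1.22), and the other 3 had -0.82 to -0.69.

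Over all genes tested, r with CATSPERB after removal of the diet means had a median of -0.05 and quartiles of -0.50 and 0.49, and 36 genes exceeded 0.9. The 10 genes with a symbol that were most like CATSPERB were ATL1 (r = 0.97), DYNC2H1 (0.94), TOP2A (0.94), FBXO43 (0.93), RAD54B (0.93), ORC3 (0.93), CCNE2 (0.92), IQUB (0.92), SCYL2 (0.92) and RTKN2 (0.92). ATL1 shapes the endoplasmic reticulum, and DYNC2H1 is the motor of transport inside cilia. TOP2A, ORC3 and CCNE2 act in chromosome untangling, the origin of replication and entry into S phase, RAD54B in recombination, and FBXO43 holds back the anaphase-promoting complex in germ cells. Of these 10, FBXO43, CCNE2 and IQUB fell, and IQUB had the largest log2 difference of the 10, -1.03 with an SE of 0.33. By comparison, 5.42% of all tested genes and 26.9% of genes with a symbol fell. The 10 were taken from genes with a symbol, so their calls are not independent evidence of a direction. ATL1 had 242.7 CPM on the high and 182.0 on the low diet, a log2 difference of -0.60, and did not pass. ATL1 went with CATSPERB equally in both diets, with r of 0.97 within each.

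At the other end were ANXA6 (r = -0.85), TMEM180 (-0.84), PSEN2 (-0.83) and SMPDL3B (-0.83). ANXA6, a calcium-dependent membrane-binding annexin, had 25.8 CPM in well-fed and 56.3 CPM in underfed sheep. All 4 rose in underfed sheep, with log2 differences from 0.97 to 1.11. By comparison, 10.8% of all tested genes and 49.7% of genes with a symbol rose. Only genes with a symbol could be named here, so these calls are not independent evidence of a direction.

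**Figure D4:**
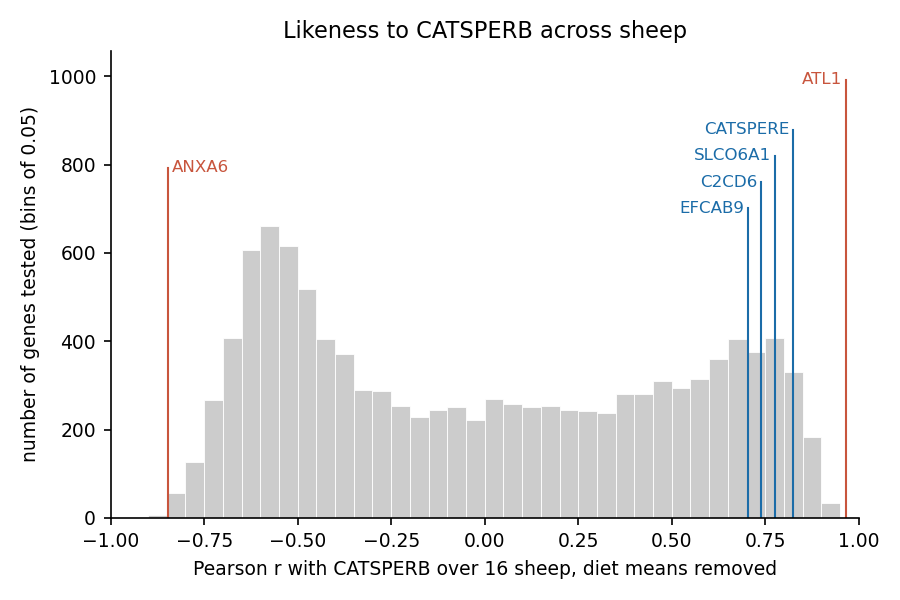
Number of genes tested (y axis) by Pearson's r with CATSPERB over 16 sheep after the diet means were removed (x axis, bins of 0.05). The distribution has a broad peak below 0 and another near 0.75, where EFCAB9, C2CD6, SLCO6A1 and CATSPERE lie between 0.70 and 0.82, with ATL1 at 0.97 and ANXA6 at -0.85.

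In the annotation of the assembly ARS-UI_Ramb_v3.0, which is another build than the one used for the counts, the genes next to CATSPERB are LOC101112168, PPP4R3A and LOC114109130 on one side and TC2N, FBLN5 and TRIP11 on the other. TC2N, a C2 domain protein, was the gene among these 6 with an identifier. It had 86.5 ± 9.10 CPM in well-fed and 61.9 ± 19.1 CPM in underfed sheep (SD, n = 8 each), a log2 difference of -0.71 with an SE of 0.21, and its ratio stayed under 1.5. Its r with CATSPERB was 0.78, at rank 692.

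Many germ cell genes of other roles fell as well. For each list, the members are those with an identifier, and the same limit on symbols applies. The background is again 5.42% of all tested genes and 26.9% of genes with a symbol that fell. Of 17 spermatid and acrosome genes of 30 listed, 10 fell and 7 did not pass, with a median log2 difference of -0.91. CAPZA3, an actin capping subunit of sperm, had -0.76 (SE 0.33) and DNAJB8, a chaperone, -0.78 (SE 0.33), and neither passed, whereas ADAM2, a sperm surface protein of egg binding, fell with -1.14 (SE 0.29). Of 4 germ cell isoforms of energy metabolism, 3 fell: GK2 (-0.79), LDHC (-1.02) and PDHA2 (-0.95), the glycerol kinase, lactate dehydrogenase and pyruvate dehydrogenase forms of the male germ line. With a sheep left out, the calls of ADAM2, LDHC and PDHA2 held in 16 of 16 fits and that of GK2 in 6 of 16. Of 9 genes of the sperm tail, 4 fell, with a median of -0.77, among them FSIP2 of the fibrous sheath (-1.22) and IQCG of the axoneme (-0.77), and SPA17 did not pass with -0.66. The call of FSIP2 held in 8 of 16 fits with a sheep left out, and that of IQCG in 5 of 16.

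Meiotic prophase genes with an identifier fell in 12 of 13 cases, with a median of -1.23. Of all tested genes 5.42% fell, and of genes with a symbol 26.9%. The symbols came mostly from genes the study had found to differ, so this count is not independent evidence of a direction. SYCP2 of the synaptonemal complex had -1.23 (SE 0.44) and HORMAD2, a chromosome axis protein, -0.79 (SE 0.19), whereas the cohesin SMC1B had -0.61 (SE 0.30) and did not pass. The call of SYCP2 held in 8 of 16 fits with a sheep left out, and that of HORMAD2 in 14. Over these 16 fits the meiotic genes called ranged from 6 to 13. On the log2 scale CATSPERB minus the mean of the 13 meiotic genes was 0.04 ± 0.30 in well-fed and -0.75 ± 0.54 in underfed sheep (SD, n = 8 each). Against the mean of the 17 spermatid genes it was -1.65 ± 0.35 and -2.65 ± 0.60, with 7 of 8 underfed sheep below every well-fed sheep. Both differences repeat the contrast that chose the gene and are described with no test. None of the 8 spermatogonial genes listed had an identifier.

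Sertoli and peritubular cell genes with an identifier rose, whereas STAR and 2 of 3 leukocyte genes fell, as given after them. Of all tested genes 10.8% rose and 5.42% fell, and of genes with a symbol 49.7% and 26.9%. Most symbols came from genes the study had found to differ. The counts and sums of these lists are therefore not independent evidence of a direction. Summed over 6 Sertoli cell genes of 12 listed, the range was 121.3 to 190.6 CPM in well-fed and 228.2 to 567.9 CPM in underfed sheep, with no overlap. All 6 rose, with a median log2 difference of 1.15, and they include CLDN11 of the blood-testis barrier (62.8 ± 13.6 and 147.9 ± 97.9 CPM), the FSH receptor FSHR (37.4 ± 4.34 and 70.1 ± 12.7 CPM) and the inhibin alpha subunit INHA (20.8 ± 10.4 and 55.3 ± 28.9 CPM). In underfed sheep CLDN11 had a median of 119.2 CPM and a highest value of 370.4 CPM. Its call held in 13 of 16 fits with a sheep left out, and those of FSHR and INHA in 16. For 1 of the 6 genes, FSHR, no sheep overlapped between the diets, against 0.762% of all tested genes that were higher in every underfed sheep. The 5 peritubular and smooth muscle genes of 8 listed all rose, with sums from 59.2 to 294.3 CPM and from 153.2 to 604.0 CPM and a median of 1.05. MYH11, smooth muscle myosin, had 1.25 (SE 0.33), TPM2 0.71 (SE 0.18) and DES 0.89 (SE 0.21).

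Of the Leydig cell genes, STAR, the cholesterol carrier of steroid synthesis, was the 1 of 6 with an identifier, and it fell with -1.45 (SE 0.32). Of 3 leukocyte genes of 7 listed, PTPRC rose with 0.80 (SE 0.24) and CD28 and CD69 fell with -0.84 (SE 0.32) and -0.86 (SE 0.31), and their sums were 47.3 to 83.0 CPM and 39.1 to 85.4 CPM. With a sheep left out, the call of PTPRC held in 16 of 16 fits, that of CD28 in 6 and that of CD69 in 7. No member of these lists was at 0 in a library. Without high diet replicates 5 and 8, where 17 of 11148 genes fell and 244 rose, the members called were 1 of 17 for spermatids, 0 of 4 for metabolism, 0 of 9 for the tail, 1 of 13 for meiosis, 3 of 6 for Sertoli cells, 0 of 5 for peritubular cells and 0 of 3 for leukocytes. Without low diet replicates 6 and 7, where 46 genes fell and 331 rose, they were 1, 1, 1, 3, 3, 2 and 1, and STAR was called both times. The part of cell composition in the difference of CATSPERB was not tested.

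Within a diet, no relation between CATSPERB and the testis traits recorded for the same sheep had an adjusted p under 0.05. The rank by p that chose the gene used the size of its variation within a diet but no trait. With 6 traits, each diet and the values of both diets after centring, 18 relations were computed, with exact permutation tests within a diet (two-sided, n = 8) and 100000 permutations within diet for the centred values. For testis weight, Pearson's r was 0.35 in well-fed sheep (exact permutation p = 0.40, Spearman's rho 0.29, p = 0.50) and 0.26 in underfed sheep (exact permutation p = 0.53, rho 0.05, p = 0.93), and the centred r over 16 sheep was 0.29 (permutation p = 0.30, rho 0.17, p = 0.56). For sperm number per testis it was 0.15 in well-fed sheep (exact permutation p = 0.72, rho 0, p = 1) and 0.28 in underfed sheep (exact permutation p = 0.51, rho 0.64, p = 0.096). The other relations had r between -0.16 and 0.24. The smallest Benjamini-Hochberg adjusted p over the 18 permutation tests was 0.84 for r and 1 for rho.

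The values within a diet turned on single sheep. When the 2 sheep farthest from a trait's median were left out, r was 0.73 for testis weight, 0.76 for sperm number and 0.86 for apoptotic germ cells per tubule in well-fed sheep, and -0.09, 0.32 and 0.22 for tubule diameter, epithelium volume and scrotal change (n = 6 each). In underfed sheep r then turned to -0.45 for testis weight and -0.28 for scrotal change, and was 0.74 for tubule diameter and between 0.29 and 0.44 for the other 3 traits (n = 6 each). Without high diet replicate 2 alone, r was 0.86 with testis weight (exact permutation test, adjusted p = 0.13) and 0.91 with apoptotic germ cells (exact permutation test, adjusted p = 0.054), and without high diet replicate 8 alone they were -0.01 and -0.13.

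**Figure D5:**
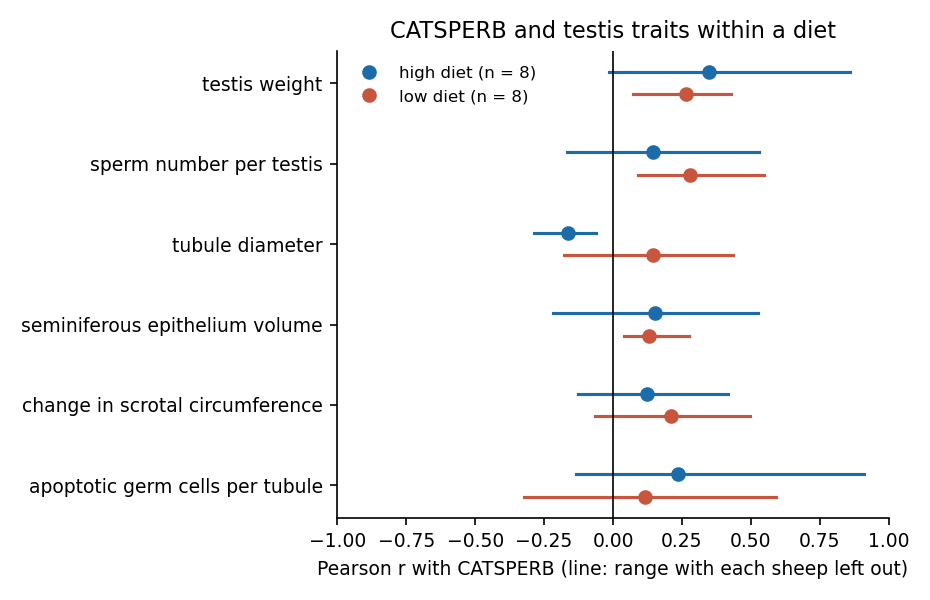
Pearson's r of CATSPERB with 6 testis traits (y axis) within each diet (points, n = 8 sheep each), with a line from the lowest to the highest r when each sheep is left out (x axis, from -1 to 1). Of the 12 lines, 8 cross 0, and the longest is that of apoptotic germ cells in well-fed sheep, from -0.13 to 0.91.

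CATSPERB also went with properties of the libraries. These 12 relations were chosen after the values were seen. Within the high diet, its value without TMM scaling had r = -0.81 with the TMM factor of the library (exact permutation p = 0.0027, adjusted p = 0.033, rho -0.86, p = 0.011, adjusted p = 0.081, n = 8), and r = -0.61 without the 2 sheep of the most extreme factors. Within the low diet the r was -0.11 (exact permutation p = 0.80), and it was -0.70 without the 2 sheep of the most extreme factors (n = 6). With the first component of all genes' values after diet centring, which held 57.9% of their variance, r was 0.79 in well-fed sheep (exact permutation p = 0.024, adjusted p = 0.098, rho 0.83, p = 0.015) and 0.34 in underfed sheep (exact permutation p = 0.40, rho 0.38, p = 0.36). On the TMM-scaled value, which contains the factor, the adjusted p in well-fed sheep was 0.014 with the TMM factor (r = -0.88, exact permutation test) and 0.042 with the component (r = 0.82, exact permutation test). Low diet libraries with a larger share of reads on their most abundant gene had less CATSPERB with r = -0.71, which did not pass after adjustment (exact permutation p = 0.047, adjusted p = 0.11, rho -0.71, p = 0.058), and r was -0.31 without the 2 sheep of the most extreme shares. The part of these properties in the difference between the diets was not tested, beyond the values without the libraries named above.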

How the data were processed

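Testis RNA of 16 sheep was sequenced with a stranded mRNA kit, per the labels, 1 library per sheep. The authors aligned paired-end reads to Oar_v3.1 with TopHat2 2.0.10, counted them per Ensembl gene with HTSeq and deposited CPM, reads over the library total, for 25197 genes. In each library 100% of CPM values were whole reads within 0.01, and these reads served for depth, thinning and count tests.

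Diets were compared with limma 3.58.1 (trend) on log2(CPM divided by TMM factor + 1), TMM from edgeR 4.0.16, for the 11148 genes above 5 CPM in 8 or more libraries. Thresholds follow the study. Permutation tests used scipy 1.17.1. Traits came from the study's table of the same sheep. DESeq2 1.42.0 and edgeR on recovered reads, other scalings, filters and pseudocounts were alternatives. The fit was tested on simulated data.

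CATSPERB and all lists were chosen with earlier results of these data known. Genes named were all matched members of both channel lists, the 3 matched members of highest mean CPM of each other list, the 10 most and 5 least like CATSPERB, and 3 neighbours a side. SPO11 was named besides for its level near the filter. A result for 1 of the 5 is not reported here. Symbols covered 1761 tested genes. Columns of the authors' fold changes and p-values were not used. Intervals cover counting error only. No sequence of CATSPERB was used.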

Additional observations from a re-analysis of the deposited data

Results flagged for a closer look

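In 40 groups of 8 values (each gene of both channel lists and each difference from CATSPERB, by diet), 3 held a sheep far from the others by Dixon's test at 95%, where chance flags about 1 in 20. EFCAB9 in high diet replicate 8 was 116.9 CPM and the next sheep 66.3 CPM, a gap of 0.559 of the range. SLCO6A1 in low diet replicate 1 was 325.3 CPM and the next 160.5 CPM, a gap of 0.641 of the range. The log2 value of CATSPERB minus that of SLC9C1 in high diet replicate 3 was -1.72 and the next -2.32, a gap of 0.541 of the range. No value of CATSPERB itself stood apart in this way.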

How the results depend on the processing

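The log2 difference of CATSPERB stayed between -2.12 and -1.56 in every alternative run, lowest without low diet replicate 1 and nearest to 0 with testis weight as a covariate, and it was -1.76 without TMM factors and -1.98 with DESeq2 or either edgeR test. Without TMM factors the median of all genes moved from 0.01 to 0.17. The genes called, 1808 (66.6% of them higher), became 1067 with the replicate block, 0 with testis weight as a covariate in limma (544 at an unadjusted p under 0.05, no other tool was run), 261 without high diet replicates 5 and 8, and 377 without low diet replicates 6 and 7. The share of calls that were higher was 77.5% without TMM factors (1563 higher, 455 lower) and 53.4% with the ratio on TMM-scaled CPM (1087 higher, 948 lower). With each sheep left out the calls ranged from 674 to 2684, and they moved by over 1.5 times without high diet replicates 1 (1018), 5 (836), 6 (930) and 8 (865) and low diet replicates 4 (843) and 6 (674).

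Of the 4 CatSper partners, 2 were called without TMM factors, 2 with the replicate block, 2 without a filter, 0 with testis weight as a covariate, and 1 without each pair of libraries named above. The range with each sheep left out was 2 to 4, with 2 called without high diet replicates 5, 6 or 8 or low diet replicates 2, 4, 6 or 8. The members lost under the block were EFCAB9 and C2CD6. Same-numbered sheep were not pairs: the correlations of their deviations ran from -0.63 to 0.70 over 8 pairs, 2 were over 0.1, and 0 samples went best with their own number. Of the 10 genes most like CATSPERB, 5 were shared with Spearman's rho and 3 without diet centring. Over the other 9 lists with an identifier, 218 of the counts under an alternative stayed within 1.5 times, 56 moved further and 14 became 0. The SD of CATSPERB between sheep was 0.655 without TMM factors and 0.707 after thinning. The cause of these shifts was not tested.

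With each sheep left out, r with testis weight ranged from -0.014 to 0.86 on the high diet, sperm number from -0.17 to 0.53, epithelium volume from -0.22 to 0.53, scrotal change from -0.13 to 0.42 and apoptotic germ cells from -0.13 to 0.91. On the low diet tubule diameter ranged from -0.18 to 0.44, scrotal change from -0.065 to 0.50 and apoptotic germ cells from -0.32 to 0.59, and over both diets, centred, tubule diameter ranged from -0.16 to 0.10, epithelium volume from -0.0031 to 0.29 and apoptotic germ cells from -0.14 to 0.35. Other scalings, pseudocounts and thinning turned the sign of no trait relation, and no trait relation had an adjusted p under 0.05 in any alternative run (the smallest was 0.054, apoptotic germ cells without high diet replicate 2).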

Other observations

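Further along the same annotation, 4 places away from CATSPERB on either side, 2 genes had an identifier, and they are named after their values were seen. ATXN3, the deubiquitinase on the side of TC2N, had 166.4 ± 58.5 CPM in well-fed sheep and 114.3 ± 35.7 CPM in underfed sheep, a log2 difference of -0.72 (SE 0.29) that did not pass, and its r with CATSPERB after diet centring was 0.72. CCDC88C, a Dishevelled-binding protein on the other side, rose from 5.48 ± 5.19 to 15.0 ± 11.8 CPM (SD, n = 8 each), a log2 difference of 1.25 (SE 0.48), and its r was -0.67.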
